A study of Sus scrofa with 2 samples.

Results

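The genes described here bind fatty acids or carry out the main steps of their metabolism: FABP3, FABP4 and FABP5, LPL and CD36, ACACA and SCD, ACADL, ABHD5 and PPARG. They were chosen by name, and their probes were those whose RefSeq transcript accession belongs to these genes in the pig annotation. All 10 genes were found among the 2459 genes that could be named on the arrays, with 44 of 43597 probes. RNA from ovarian tissue of conventional pigs was hybridised to 1 porcine Agilent array and RNA from ovarian tissue of minipigs to another, to ask how ovarian gene expression differs between the breeds. All tissue was taken on day 15 of the estrous cycle, and corpora lutea had been cut away before RNA extraction. The conventional pigs were Yorkshire sows and the minipigs were Midget pigs, all 10 months old and cycling, and neither labels nor methods name a treatment or an allele. Ovaries came from 5 animals per breed, and the text of the methods does not tell whether an array carried RNA of 1 animal or of a pool.

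Ovarian cells use fatty acids as fuel, as membrane material and for the cholesterol esters and prostaglandin precursors on which steroid-producing cells draw. Fatty acids reach a cell from lipoproteins, after lipoprotein lipase (LPL) has released them, and through membrane proteins such as CD36. Inside the cell they are carried by small fatty acid binding proteins, made anew from acetyl-CoA by carboxylation (ACACA) and desaturated by SCD, stored in lipid droplets and released again with the help of ABHD5, or oxidised in mitochondria by enzymes such as ACADL. PPARG is a nuclear receptor that is activated by fatty acids and their derivatives and controls many of these genes. In the ovary of several mammals it is found mainly in granulosa cells.

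Because there is 1 array for each breed, the values below have no replicates and none of them was tested. They describe a pair of arrays, and precision is limited by that number. The median intensity over all probes was 128 for the minipig array against 119 for the other, no spot was saturated, and 88.1% and 85.2% of the probes, in the same order, were well above background. Levels are log2 intensities with each array set to zero at its 75th percentile, and all differences are conventional pig minus minipig on the log2 scale, so that 1 is a 2-fold difference. The scanner software gives each spot an error of its own. Combined over both arrays, it came to between 0.20 and 0.46 for the differences of the probes used here, and an SD of 0.25 for the difference of single spots came from 42 probes printed several times. Both cover the measurement of a spot, not the animals. The breed labels are in doubt: the deposited table of normalised log2 values assigns the 2 arrays to the breeds the other way round. Scanner labels are used below, and under the labels of that table every direction is the opposite one. Probes in bulk tissue also cannot tell fewer cells of a type from less RNA per cell.

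FABP3, SCD and LPL had higher levels on the conventional pig array, PPARG on the minipig array. The first of these (14.1-fold), SCD (6.39-fold) and LPL (3.66-fold) passed 2-fold in one direction, and PPARG (3.37-fold) in the other. The remaining 6 genes, each given by its median probe, differed by less than 2-fold. Over all 2363 genes with a value, 11.7% passed 2-fold toward the conventional pig array and 7.96% toward the minipig array. By probe, 18 of the 43 with a value passed 2-fold toward the conventional pig array and 4 toward the minipig array, beside 7.48% and 8.94%, respectively, of all 38883 probes with a value. The median difference of the 10 genes was 0.50, and that of all named genes was 0.04. In total, 7 genes lay above zero and 3 below it. Median centring moved the median of all named genes by 0.15 toward the conventional pig array. Among all genes past 2-fold, 59.6% were higher on the conventional pig array, against 72.2% after median centring. The number of the 10 genes past 2-fold, 3 and 1, was the same under both.

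**Figure D1:**
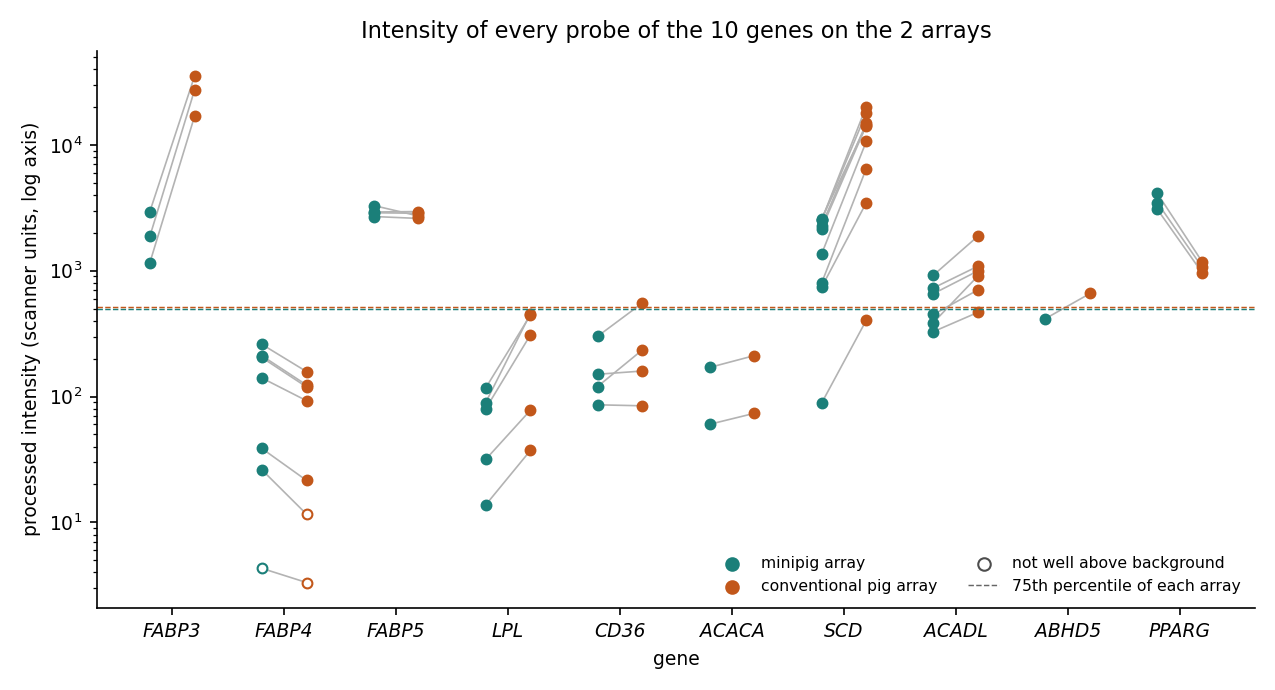
Processed intensity in scanner units (log axis) of each of the 44 probes of the 10 genes on both arrays, with a line joining the 2 values of a probe and open circles for values not well above background. All probes of FABP3, SCD and LPL slope upward, those of PPARG slope downward, and the 4 probes of FABP5 lie between 2605 and 3299 on both arrays.

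The 3 fatty acid binding proteins went different ways. FABP3, the heart-type protein, is best known from heart and skeletal muscle, where it carries fatty acids to mitochondria. Its 3 probes read 1155, 1872 and 2947 on the minipig array and, in the same order, 16919.8, 27345 and 35263 on the conventional pig array. Each probe was thus more than 10-fold brighter on the conventional pig array. The differences were 3.82, 3.82 and 3.53, with a scanner error of 0.20 each, and only 9 of the 2363 genes had a larger difference toward the conventional pig array. The SD over its probes was 0.17, against a median SD of 0.20 over 1220 named genes with several probes.

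FABP4, the adipocyte-type protein, also occurs in macrophages and capillary endothelium. It was dim on both arrays: its 7 probes lay between 4.31 and 260.3 on the minipig array; the same probes lay between 3.33 and 158 on the conventional pig array. Every probe read lower on the conventional pig array. A single probe stood too close to background on both arrays and gave no difference. Of the other 6, 5 had differences from -0.90 to -0.65. The sixth stood well above background on the minipig array only, and its bound is at least 2.34-fold toward that array. The median difference was -0.83, short of 2-fold, and no probe lay within its scanner error of zero. FABP5, the epidermal type, is expressed in many tissues. Its 4 probes read 2697 to 3299 on the minipig array, against 2605 to 2954 on the conventional pig array. Little separated the arrays, and 3 of the 4 differences were smaller than the scanner error of 0.20. The median difference was -0.09, and it was 0.07 after median centring, so no direction can be given for FABP5.

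**Figure D2:**
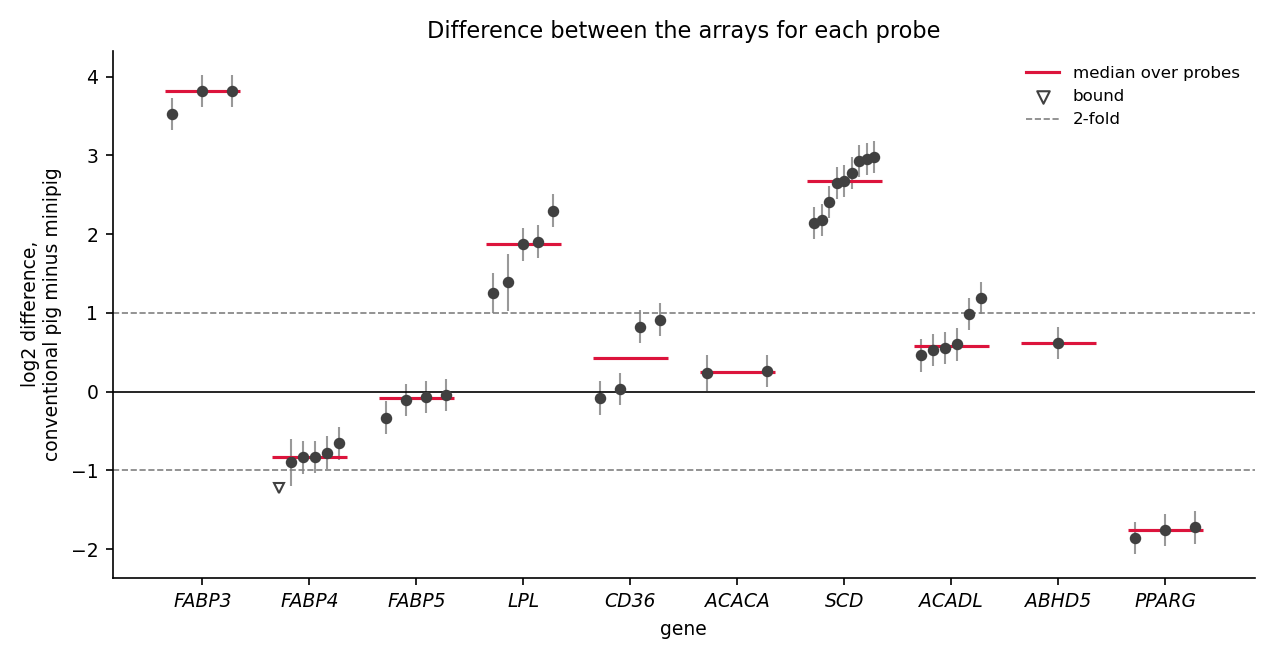
Log2 difference, conventional pig minus minipig, of each probe with a value, by gene; bars are the scanner software's error of the difference for single spots, red lines the median over probes, dashed lines 2-fold and the open triangle a bound. The probes of FABP3, SCD, LPL and PPARG lie beyond 2-fold, and those of CD36 fall into a pair at -0.08 and 0.03 and a pair at 0.83 and 0.91.

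Of the genes of fatty acid uptake, LPL differed more than CD36. LPL encodes the enzyme that splits triacylglycerol of circulating lipoproteins at the capillary wall. Its 5 probes read 13.7, 31.6, 79.8, 89.4 and 117 on the minipig array. On the conventional pig array the same probes read 37.3, 77.9, 309, 457 and 444. Each of them was brighter on the conventional pig array and past 2-fold. The differences ran from 1.25 to 2.30 with a median of 1.87, and the SD over probes was 0.42, above the upper quartile of 0.36 among named genes. The probes that read 13.7 and 31.6 gave the smallest differences, 1.39 and 1.25, and under normexp background correction the median was 1.42. CD36 encodes a scavenger receptor that also takes up long-chain fatty acids and oxidised lipoproteins. On the minipig array its 4 probes read 86.0, 120.1, 150.4 and 301, and on the conventional pig array 84.4, 235, 160 and 554. Its probes did not agree. A pair differed by 0.83 and 0.91, while the other pair, at -0.08 and 0.03, lay within the scanner error. CD36 was the only one of the 10 genes whose probes lay on both sides of zero. Its median of 0.43 therefore stands for neither pair.

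Fatty acid synthesis showed a large difference at the desaturase and a small one at the carboxylase. SCD encodes stearoyl-CoA desaturase, which introduces the double bond that turns stearate into oleate. Its 9 probes had a lowest, median and highest intensity of 88.3, 2156 and 2585 on the minipig array. The corresponding intensities were 404, 14268 and 20196 on the conventional pig array. After scaling, the 9 probes were 4.41 to 7.86-fold brighter on the conventional pig array. Differences ran from 2.14 to 2.97, with a median of 2.68 and an SD of 0.32, and 29 named genes had a larger difference. ACACA encodes acetyl-CoA carboxylase alpha, whose product malonyl-CoA is the building block of new fatty acids. Its 2 probes read 60.2 and 170 on the minipig array, against 73.6 and 212 on the conventional pig array. Both were slightly higher on the latter, by 0.24 and 0.26. These differences exceeded their scanner errors of 0.22 and 0.21 by less than 2 times.

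ACADL, the mitochondrial long-chain acyl-CoA dehydrogenase that opens a round of beta-oxidation, was moderately higher on the conventional pig array. Its 6 probes ranged from 328 to 923 on the minipig array, and the same probes from 468 to 1892 on the conventional pig array. Every probe was brighter on the conventional pig array than on the minipig array. The differences lay between 0.46 and 1.18 and only the largest was past 2-fold, with a median of 0.58. Taken from the brightest probe instead, the difference was 0.98. ABHD5 encodes the co-activator of adipose triglyceride lipase on lipid droplets. It had 1 probe, which read 416 on the minipig array, against 660.4 on the conventional pig array. That is a difference of 0.61, or 1.53-fold, with no other probe to set it against.

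PPARG was the only one of the 10 genes past 2-fold toward the minipig array. Its 3 probes read 3077, 3475 and 4118 on the minipig array, against 965, 1069 and 1180 on the conventional pig array. Each of them was dimmer on the conventional pig array. The differences were -1.73, -1.75 and -1.86, an SD of 0.07 over the probes, and 53 of the 2363 genes had a larger difference toward the minipig array. Its direction was thus opposite to that of FABP3, SCD and LPL, all past 2-fold on the same pair of arrays. In 9 of the 10 genes all probes with a value lay on the same side of zero, where ABHD5 counts with a single probe. Among the 1220 named genes for which both arrays measured several probes above background, 71.7% had all probes on the same side.

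The other genes of these pathways were taken from 7 lists, which together hold 146 different genes, the 10 included, of which 84 were named on the arrays and 79 had a value. Apart from the 10 genes, 69 had a value, of which 42 lay above zero and 27 below it. Past 2-fold were 15 toward the conventional pig array and 3 toward the minipig array, and the median of the 69 was 0.27. The shares of all named genes with a value were 11.7% and 7.96%. Under normexp background correction the counts were 11 and 1, and the shares of all named genes 8.80% and 4.15%. Under the other scalings and filters the counts were 13 to 17 and 2, beside shares of 11.3% to 15.4% and 5.93% to 8.70%. Of all named genes with a value, 52.5% lay above zero. Since many genes of the lists were not named on the arrays, the counts describe the genes measured and not whole pathways. FADS2, FABP1, HSD17B4, RXRG, AQP9 and the genes within 2-fold that are named below were chosen after their values were seen.

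**Figure D3:**
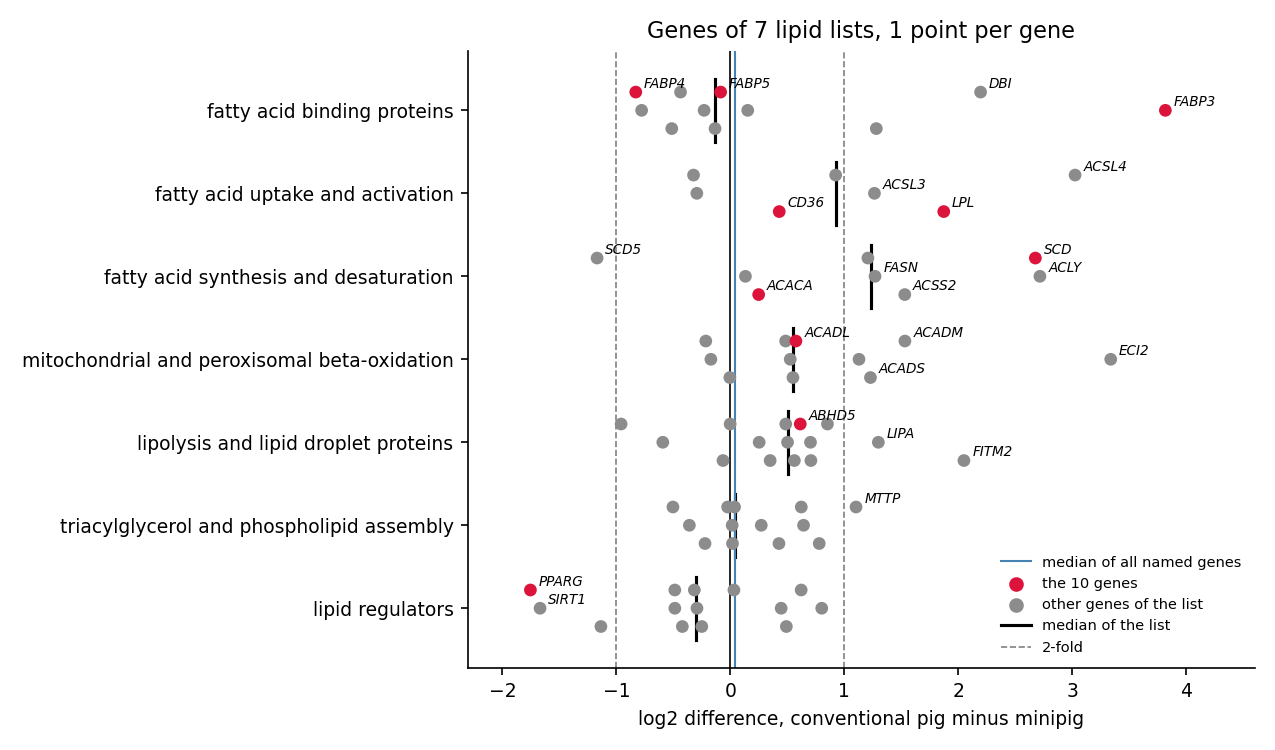
Log2 difference, conventional pig minus minipig, of each gene with a value in 7 lists of lipid genes, 1 point per gene, with the 10 genes in red, the median of each list as a black bar, the median of all named genes as a blue line and 2-fold as dashed lines. Synthesis genes lie furthest to the right with a median of 1.24, and regulators to the left with a median of -0.30.

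In the list of fatty acid synthesis and desaturation, 7 of 8 genes with a value lay above zero, 5 of them past 2-fold, with a median of 1.24. ACLY, which makes cytosolic acetyl-CoA from citrate, stood beside SCD at 2.72. Its 3 probes read 60.8, 4153 and 6039 on the minipig array, against 235, 28536 and 41152 on the conventional pig array. FASN, the fatty acid synthase, had a median difference of 1.27. Of its 3 probes, 2 gave 1.27 and 1.29, and the third gave -0.02. ACSS2, which activates acetate, had a median of 1.53, but its probes disagreed, from -0.83 to 1.57. FADS2, a desaturase of polyunsaturated fatty acids, was the fifth gene, at 1.21 from 1 probe. Normexp correction took it to 0.89, and quantile normalization took FASN to 0.88, so that 4 genes were past 2-fold under either. SCD5 went the other way. This second desaturase of the family had a difference of -1.17, from probes at -1.51 and -0.83, whereas all 9 probes of SCD were higher on the conventional pig array. It was at -0.98, short of 2-fold, under normexp correction. Among scalings and filters, normexp correction gave the lowest median of the list, 0.96.

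Of the 7 genes of uptake and activation, 5 lay above zero and 3 were past 2-fold, all toward the conventional pig array, with a median of 0.92. ACSL4 couples long-chain polyunsaturated fatty acids, arachidonic acid above all, to coenzyme A. Its 6 probes lay between 209 and 3825 on the minipig array, and the same probes between 2088 and 33447 on the conventional pig array. All 6 differed by 2.78 to 3.27, which puts its median of 3.02 above that of LPL on this scale. ACSL3, an acyl-CoA synthetase of lipid droplets, differed by 1.26. The transporter gene SLC27A1 (-0.32) and CAV1 (-0.29), which encodes the coat protein of caveolae, lay on the other side and within 2-fold.

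Fatty acid binding proteins as a list showed no common direction, with 4 of 11 above zero and a median of -0.13. This median was 0.02 after median centring. Besides FABP3, DBI was past 2-fold among the genes well above background throughout. DBI encodes the acyl-CoA binding protein, and its 2 probes read 4355 and 5462 on the minipig array, against 22593 and 23762 on the conventional pig array. The difference was 2.20. FABP1, the liver type, was also past 2-fold but was not well above background on the minipig array with any of its 3 probes, so its difference is a bound of at least 2.43-fold. Under normexp correction it was at 0.27. FABP2 had no probe well above background.

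For beta-oxidation, 8 of 11 genes lay above zero and 4 were past 2-fold, none toward the minipig array, with a median of 0.55. The acyl-CoA dehydrogenases for the shorter chains differed by more than ACADL. ACADM, the medium-chain enzyme, had 7 probes with differences from 1.20 to 1.94 and a median of 1.53. ACADS, the short-chain enzyme, differed by 1.23 in both of its probes. ECI2, an isomerase for unsaturated fatty acids, had the largest difference of the list, 3.34, from 1 probe, and 1.95 under normexp correction. The fourth was HSD17B4, a bifunctional enzyme of peroxisomes, at 1.13, which fell short of 2-fold under quantile (0.80) and loess (0.89) normalization. CPT1A, which controls the entry of long-chain fatty acids into mitochondria, was at -0.0044 with probes from -0.57 to 0.24. HADHA, a subunit of the trifunctional protein, was at -0.17. Differences along the pathway were therefore uneven.

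The list of lipolysis and lipid droplet genes had 11 of 15 genes above zero and a median of 0.50. Past 2-fold were LIPA, the lysosomal acid lipase (1.30), and FITM2, which takes part in droplet formation (2.05), each from 1 probe and toward the conventional pig array. FITM2 was at 0.71 under normexp correction, which left LIPA alone past 2-fold. PNPLA2, the lipase that ABHD5 activates, differed by 0.49 and the hormone-sensitive lipase LIPE by 0.71. PLIN2, a coat protein of lipid droplets in most cells, was at -0.0018. Triacylglycerol and phospholipid assembly had 9 of 13 genes above zero, a median of 0.04 and MTTP, which loads lipid onto lipoproteins, as the only gene past 2-fold (1.10). It was at 0.57 under normexp correction, with 0 genes of the list then past 2-fold. DGAT1 (0.62) and DGAT2 (0.43), which complete triacylglycerol, differed by less than that.

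Lipid regulators lay mostly on the other side: 9 of 14 genes were below zero, 3 past 2-fold toward the minipig array and 0 toward the conventional pig array, with a median of -0.30. Beside PPARG, the deacetylase gene SIRT1 was at -1.67 from 1 probe. RXRG, a retinoid X receptor that pairs with PPAR proteins, was at -1.14 from 2 probes, one of them a bound. Under each of the 6 other scalings and filters RXRG was within 2-fold, from -0.98 to -0.30, and 2 regulators were past it. The other 2 receptors of the PPAR family were within 2-fold: PPARA was at -0.49 from 1 probe and PPARD at -0.25, although its 2 probes gave -0.97 and 0.47. SREBF1, a transcription factor of lipogenic genes, had a difference of 0.49. The oxysterol receptor gene NR1H3 was at 0.03. NR1H3, CPT1A and PLIN2 each changed sign under 3 of the scalings and filters, so none of them has a direction.

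Markers of cell types that ovarian tissue can hold were measured on the same arrays. Levels were summed over the genes of a list in units of the 75th percentile of each array. Of the luteal and steroidogenic markers, 7 of 8 were higher on the conventional pig array, as were FABP3, SCD and LPL, and 6 were past 2-fold. Their summed level was 95.5 on the minipig array, against 355 on the conventional pig array. FDX1, at 0.63, made up 64.7 and 109 of these, and without it the sums were 30.7 and 246. Granulosa markers moved with PPARG: 6 of the 7 measured, of 10, were higher on the minipig array, 5 past 2-fold, with sums of 40.9 there and 18.0 on the conventional pig array. One of the 6, FST, was at -0.08, and at 0.08 after median centring. AMH, among the 5, was at -1.03 and after median centring at -0.87, and the 2 probes of INHBA disagreed, at -3.91 and 0.37. The 3 theca markers measured, of 5, were also higher on the minipig array, with sums of 82.3 and 11.9. INSL3 made up most of the first sum, with 72.0 against 5.32, and without it the sums were 10.3 and 6.53. CYP17A1 differed by -1.74 and LHCGR by -0.62. Each of these markers had a probe well above background on both arrays. The part of these cell types in the differences of the 10 genes was not tested.

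Other sources of FABP4, CD36 and FABP3 were looked at in the same way. Of 9 adipocyte markers, 7 were named on the arrays. The lipid droplet genes PLIN1 and CIDEC, which define fat cells, had no probe well above background. The adipokine genes ADIPOQ and LEP were well above background on both arrays, with differences of -0.08, which turned positive under 3 scalings, and -0.52. The sum of the list was 2.66 on the minipig array, against 2.85 on the conventional pig array, with a median difference of -0.08. LIPE made up 1.24 and 1.71 of these, and without it the sums were 1.41 and 1.14. RETN was at -0.51, ADRB3 at 0.08 and LIPE at 0.71. Macrophage markers (4 of 9 measured) summed to 5.90 and 7.27 and had a median of 0.42, and endothelial markers (3 of 8) summed to 3.57 and 5.51 with a median of 0.55. Single macrophage markers ran from -0.25 (CD163) to 1.04 (CD14). The endothelial ones ran from 0.36 (CDH5, with probes at -0.02 and 0.74) to 0.80 (ENG). Striated muscle markers (6 of 8) summed to 3.51 and 4.69, with a median of 0.39. ACTA1 made up 2.61 and 2.65 of these, and without it the sums were 0.90 and 2.04. Single genes ran from -0.74 (MYH7) to 0.97 (CKM) and 2.16 (TNNC2). The probes spread widely in ACTA1 (-4.27 to 0.32), MYH7 (-3.53 to 0.28) and CKM (0.03 to 2.26). Smooth muscle markers (3 of 6) summed to 76.2 and 74.7, of which ACTA2 made up 67.8 and 71.8. Their median was -1.32, with DES (-2.00) and CNN1 (-1.32) past 2-fold toward the minipig array and ACTA2 at 0.10. No erythrocyte marker was named on the arrays. These lists are incomplete, and a part of these cell types in the differences was not tested.

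**Figure D4:**
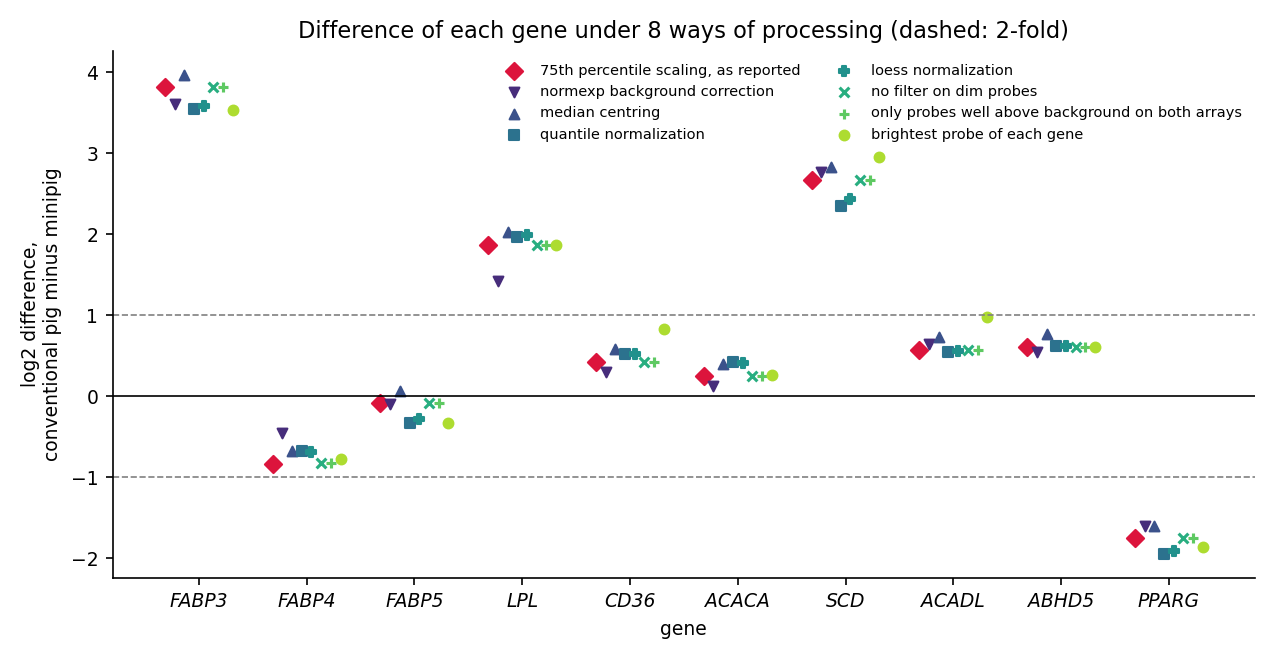
Log2 difference of each of the 10 genes as reported (red diamonds) and under 7 alternative ways of scaling, correcting, filtering or summarising the scanner intensities, with 2-fold as dashed lines. FABP3, SCD and LPL stay above 2-fold and PPARG stays beyond it on the minipig side under all of them, and FABP5 crosses zero after median centring.

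The 4 genes past 2-fold remained so in the same direction across these settings. FABP3 ranged from 3.53 to 3.97, SCD from 2.35 to 2.95, LPL from 1.42 to 2.03 and PPARG from -1.94 to -1.60. The settings do not touch the breed labels. In the deposited log2 table, which lists only probes past 2-fold, stood 21 of the 44 probes, namely all of FABP3, SCD, LPL and PPARG and 1 of ACADL. Each had the opposite sign there.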

How the data were processed

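The 10 genes and the lists were chosen with earlier results of these data known. The authors deposited the output of Agilent Feature Extraction 10.7.3.1, whose processed intensities have background and spatial trends removed and are not normalised between arrays. The authors also deposited log2 values of 5617 probes, each well above background on both arrays and past 2-fold. For probes printed once, the values of its minipig column are log2 scanner intensities of the conventional pig array shifted by a constant, to within 7.46e-07.

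Control spots and outlier spots (5 on the minipig array, 10 on the other) were left out, repeated spots were averaged, and the 75th percentile of each array was subtracted. Where only 1 array was well above background, the other was set to its lowest intensity that is well above background, or kept at the measured intensity if that is higher, which gives a bound. A gene takes the median over its probes. RefSeq accessions (assembly Sscrofa11.1) named 12.8% of the probes; probes of paralogs were not tested for cross-hybridisation. Besides the 10 genes, each list names up to 3 genes each way with the largest difference past 2-fold and all probes well above background on both arrays. Normexp used an offset of 50 on median signals, and loess a span of 0.3. The steps were tested on simulated data. Calculations used numpy 2.4.6, pandas 2.3.3 and statsmodels 0.14.6 in Python 3.11.15, and limma 3.58.1 in R 4.3.3.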

Additional observations from a re-analysis of the deposited data

How the results depend on the processing

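All alternatives were planned. Over the scanner intensities, 135 of 145 values moved by less than the SD of 0.25 between single spots or, for counts, by less than 1.5 times. This count includes values that could not move. The filters on dim probes leave a gene unchanged if all its probes are well above background on both arrays. That holds for all of the 10 genes but FABP4. ABHD5, with 1 probe, is also fixed under the brightest probe. The numbers of the 10 genes past 2-fold, 3 and 1, did not change, and the probes past 2-fold numbered 16 to 20 and 3 to 4. Quantile normalization took FABP3 to 3.55 and SCD to 2.35. With the brightest probe FABP3 was 3.53, SCD 2.95, ACADL 0.98, CD36 0.83 and the median of the beta-oxidation list 0.98. Normexp correction took FABP4 to -0.45, LPL to 1.42 and the median of the synthesis list to 0.96, and left 98 of all named genes past 2-fold toward the minipig array against 188. The sign of FABP5 and of the median of fatty acid binding proteins changed under median centring, to 0.07 and 0.02. In the deposited log2 table, read by its own labels, the differences were -3.81 for FABP3, -2.67 for SCD, -1.87 for LPL, 1.76 for PPARG and -1.18 for ACADL. By those labels 1 of the 10 genes and 3 probes were past 2-fold toward the conventional pig, and 4 genes and 18 probes toward the minipig. Which labels are right was not settled. The table gives no list medians, because it holds only probes past 2-fold. No paired analysis was possible because there is 1 array per breed, and for the same reason no replicate could be left out. Dim probes are limited by background, which bears on FABP4 and LPL.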

Other observations

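The cellular retinoic acid binding proteins belong to the same family as the fatty acid binding proteins, and their genes lay on the other side from FABP3, within 2-fold. CRABP2 had a difference of -0.78 and CRABP1 of -0.44, each from 1 probe. CRABP2 was dim on both arrays, and under normexp correction it was at -0.17 and CRABP1 at -0.48. RBP4, the retinol carrier of plasma, is not of this family, and its 3 probes disagreed, from -1.55 to 0.37. AQP3 and AQP7, aquaporins that let glycerol pass, also lay on the minipig side. AQP3 had a difference of -0.96 and AQP7 of -0.59, with the 2 probes of AQP3 at -1.53 and -0.39. Normexp correction took AQP3 to -0.46 and AQP7 to -0.21. The aquaporin gene AQP9 went the other way. Its 1 probe was too dim on the minipig array for a measured difference, and its bound is at least 51.6-fold toward the conventional pig array.

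Within a gene, the dimmest probe did not always give the smallest difference. For SCD the dimmest probe, with a mean intensity of 189 over both arrays, differed by 2.14 and the brightest, at 7125, by 2.95. The corresponding values for CD36 were -0.08 at 85.2 and 0.83 at 408. In FABP3 the order was turned, with 3.82 at 4420 and 3.53 at 10194. Where on the transcripts these probes lie was not analysed here.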
